A study of Homo sapiens with 6 samples.

Results

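The anaphase-promoting complex, or cyclosome (APC/C), was followed at the level of mRNA through 10 genes, 5 that encode its activators, ubiquitin-conjugating (E2) enzymes and inhibitor (CDC20, FZR1, UBE2C, UBE2S and FBXO5, called regulators here) and 5 that encode subunits of the complex itself (CDC27, CDC16, CDC23, ANAPC1 and ANAPC5, called core subunits here). The members were taken by gene symbol from the 60666 genes that the deposited table lists on the primary chromosomes, and each symbol was found once there. All 10 members passed the filter on low values, a mean of at least 1 FPKM (fragments per kilobase of transcript, scaled for the number of mapped fragments, so a level per length), and so belong to the 12025 genes tested. RNA-seq was done on 6 samples of hTERT-RPE1-TOShOFD1 cells, a line of hTERT-immortalized human retinal pigment epithelial cells that carries a doxycycline-inducible (Tet-On) hairpin directed at OFD1, delivered by lentivirus. The control group is 3 samples without doxycycline, whose genotype is labelled WT although they carry the same uninduced hairpin, and the OFD1-depleted group, or depleted replicates, is 3 samples given 200 ng/mL doxycycline, with both groups labelled 72 h. The RNA-seq rests on this 1 line, and 0 samples received doxycycline without the OFD1 hairpin, so effects of OFD1 loss, of doxycycline and of the hairpin on other mRNAs cannot be told apart. The study calls its replicates biological.

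The APC/C is a large ubiquitin ligase that marks mitotic regulators such as cyclin B and securin for destruction by the proteasome, and so starts anaphase and lets the cell leave mitosis. CDC20 activates it in mitosis, and FZR1 (also called CDH1) activates it from late mitosis through G1 and in resting cells. UBE2C starts ubiquitin chains on substrates, UBE2S lengthens them, and FBXO5 (EMI1) inhibits the ligase in S and G2 phase. ANAPC1 and ANAPC5 belong to the platform of the complex, while CDC27, CDC16 and CDC23 are tetratricopeptide-repeat subunits of its scaffold, of which CDC27 and CDC23 dock the activators. The comparison asks how mRNA of these genes differs once OFD1, a centriolar satellite protein, has been depleted from cycling cells, and whether regulators and core subunits differ together.

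Promoter sequences are shown because 4 of 5 regulators passed the test below and 0 of 5 core subunits did. Of all genes tested 17% passed it, with 11.9% lower and 5.07% higher. Letters in a promoter are a feature that the choice of genes did not use. The sequences are from RefSeq (GRCh38.p14, 250 bases before to 50 after each annotated start). In it 9 of the 10 members matched, with 11 windows since FZR1 and FBXO5 have 2 starts each. UBE2C had no entry. Each line holds only the stretch before the start that contains no GENCODE version 44 exon, read 5′ to 3′ on the strand of the gene. Capitals mark TTTGAA, the letters of the cell cycle genes homology region (CHR), and CCAAT, the box bound by NF-Y, each also on the other strand (TTCAAA and ATTGG). The stretches are CDC20 (chr1:43358731-43358980, plus strand), FBXO5 at its downstream start (chr6:152983042-152983233, minus strand), UBE2S (chr19:55407789-55408038, minus strand), FZR1 at its upstream start (chr19:3506061-3506310, plus strand) and, from the core subunits, CDC23 (chr5:138213344-138213573, minus strand).
CDC20: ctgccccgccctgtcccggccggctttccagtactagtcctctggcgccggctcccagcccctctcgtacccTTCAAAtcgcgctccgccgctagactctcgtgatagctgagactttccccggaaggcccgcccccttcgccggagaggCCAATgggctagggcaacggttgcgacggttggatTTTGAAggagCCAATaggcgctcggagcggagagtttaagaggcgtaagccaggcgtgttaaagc
FBXO5: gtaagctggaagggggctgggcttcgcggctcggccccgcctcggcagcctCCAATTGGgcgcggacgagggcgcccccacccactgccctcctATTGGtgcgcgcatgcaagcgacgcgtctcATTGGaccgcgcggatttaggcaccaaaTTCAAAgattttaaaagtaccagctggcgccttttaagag
UBE2S: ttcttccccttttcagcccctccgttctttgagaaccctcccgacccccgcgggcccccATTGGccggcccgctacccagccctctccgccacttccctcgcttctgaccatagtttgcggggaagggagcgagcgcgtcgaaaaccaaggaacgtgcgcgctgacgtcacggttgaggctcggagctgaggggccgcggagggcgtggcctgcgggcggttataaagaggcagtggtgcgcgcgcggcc
FZR1: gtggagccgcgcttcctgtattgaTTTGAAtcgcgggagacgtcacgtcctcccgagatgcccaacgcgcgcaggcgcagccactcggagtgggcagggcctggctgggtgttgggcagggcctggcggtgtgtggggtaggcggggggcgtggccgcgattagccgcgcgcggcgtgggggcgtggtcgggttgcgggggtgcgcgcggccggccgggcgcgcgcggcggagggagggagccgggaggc
CDC23: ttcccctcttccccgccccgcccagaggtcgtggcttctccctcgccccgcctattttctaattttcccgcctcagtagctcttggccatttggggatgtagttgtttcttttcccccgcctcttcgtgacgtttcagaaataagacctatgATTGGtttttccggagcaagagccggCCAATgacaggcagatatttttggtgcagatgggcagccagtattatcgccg

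TTTGAA was found in the full windows of 3 of 4 regulators (CDC20, FZR1 and FBXO5) and of 1 of 5 core subunits (ANAPC1). It was found in 15.2% of the 35116 windows of the same length. A gene was counted when any of its windows matched, whereas the shares of all windows are per window. Among the regulators with a CHR match, FZR1 did not pass the test below. UBE2S passed it but held no CHR match, and UBE2C, which also passed, had no window. Among the regulators, the CHR matches thus did not follow which genes passed. FZR1 held TTTGAA only at its upstream start, and FBXO5 held TTTGAA and CCAAT only at its downstream start. Counted from the start of the gene, its leftmost base lay at -65 and -178 in CDC20, at -40 in FBXO5, at -226 in FZR1 and at 38 in ANAPC1. CCAAT was found in 3 of 4 regulators (CDC20, UBE2S and FBXO5) and in 4 of 5 core subunits (CDC27, CDC16, CDC23 and ANAPC5), against 34.6% of all windows. Only CDC20 and the downstream start of FBXO5 held both among the 11 windows, which 5.9% of all windows did. The E2F letters TTTCGCGC, TTTGGCGC, TTTCCCGC and TTTGCCGC, on either strand, were found in the windows of CDC16 and CDC23 and in 3.31% of all windows. These matches describe letters and were not tested for binding, and ATTGG and CCAAT overlap in 1 place in FBXO5.

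OFD1 itself, the target of the hairpin, lay between 3.34 and 3.62 FPKM in the control and between 0.763 and 1.43 FPKM in the OFD1-depleted samples. Of the 12025 genes tested by limma, 1429 were lower and 610 higher with an adjusted p under 0.05. This split of 70.1% lower became 88% with all samples scaled to the same total. It became 54.9% with quantile normalization and 56.3% with a trend on exonic length removed. The median over genes of the change in log2 fold change was -0.145 with scaling to the same total and 0.103 with quantile normalization. OFD1-depleted replicate 2 stood apart from the others. Against the other 2 samples of its group, its median log2 difference was 0.3 over the 2403 genes of up to 2604 exonic bases and -0.36 over the 2400 longest. Values of UBE2S, CDC27 and ANAPC1 are therefore also given without this replicate. Those of UBE2S and ANAPC1 are also given with the trend on exonic length removed. Mitochondrially encoded genes took 8.66 to 13.8% of the summed FPKM in control and 15.6 to 19.3% in OFD1-depleted samples, and the part of this in the results was not tested. Of the epithelial markers, KRT8 (140 to 151 FPKM in control) and KRT18 were high, and TJP1 had a mean of 14.0 FPKM in control. EPCAM was listed at 0 in all samples and CDH1, the cadherin, did not exceed 0.0492 FPKM. Of 8 markers of retinal pigment epithelium, MITF alone reached a mean of 1 FPKM (5.39 FPKM in control), BEST1 was at 4.33 FPKM in OFD1-depleted replicate 2 only, RPE65 did not exceed 0.209 FPKM and TTR was listed at 0. Of 8 markers of retinal neurons, NRL was highest at 0.286 FPKM. Apart from MITF, and BEST1 in OFD1-depleted replicate 2, no listed marker of either tissue reached 1 FPKM in any sample. The tissue is labelled Retina, and the extract protocol in the labels speaks of flash-frozen retinas, while the sample titles name the cell line.

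mRNA of 4 of the 5 APC/C regulators was lower after OFD1 depletion past the threshold of the limma comparison (FBXO5, UBE2C, CDC20 and UBE2S), and none was higher, while 0 of the 5 core subunits passed in either direction. Among all genes tested 11.9% were called lower, 5.07% higher and 17% in either direction. The median log2 fold change was -1.16 over the regulators, 0.08 over the core subunits and -0.03 over all genes tested. The values of the 5 regulators ran from -1.39 to -0.26 and those of the core subunits from -0.12 to 0.14. In bulk RNA a smaller share of cells in S, G2 or M phase and less mRNA of these genes per cell cannot be told apart. For the core subunits 0 genes had an unadjusted p under 0.05 in limma, against 30.6% of all genes tested (19.1% lower and 11.5% higher). All 5 regulators had lower values in every OFD1-depleted sample than in any control sample, which 22.3% of all genes tested did (36.1% did not overlap in either direction), and no core subunit had groups that did not overlap. Exact permutation of 3 samples against 3 cannot give a two-sided p under 0.1, and each of the 5 regulators had that value.

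**Figure D1:**
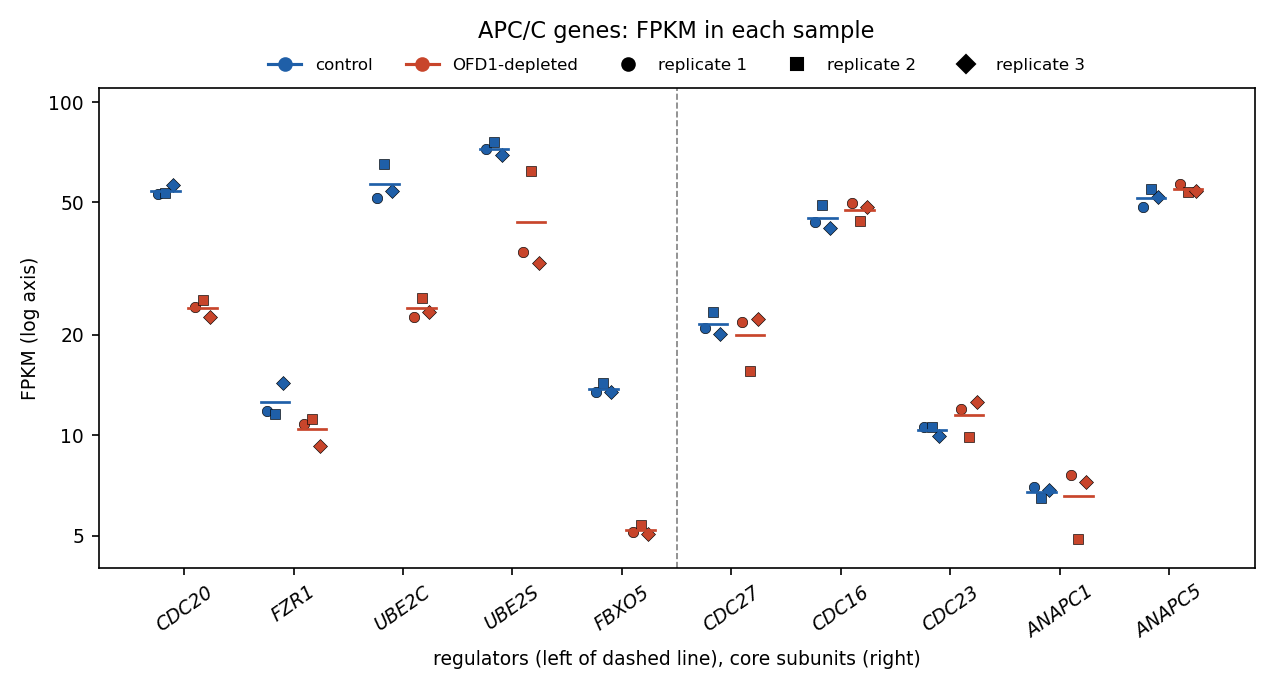
FPKM (vertical log axis) of the 10 APC/C genes (horizontal axis) in each of 3 control (blue) and 3 OFD1-depleted (red) samples, with marker shape for the replicate number and a line at the mean. CDC20, UBE2C and FBXO5 show 2 separate clusters, UBE2S has its OFD1-depleted replicate 2 at 62.2 FPKM near the control values, and the core subunits overlap.

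FBXO5 (ENSG00000112029, GRCh38 chromosome 6 from 152970519 to 152983579), the inhibitor, had the largest fall of the 10 members. It had 13.5, 14.3 and 13.5 FPKM in control replicates 1 to 3 and 5.14, 5.38 and 5.07 FPKM in depleted replicates 1 to 3. The samples within each group lay close together, and the groups were far apart. The mean fell from 13.8 ± 0.448 FPKM to 5.2 ± 0.162 FPKM (SD, n = 3 per group), to 37.8% of control. The log2 fold change was -1.39 (95% confidence interval -1.67 to -1.11, limma adjusted p = 4.35e-05). Of the genes tested, 1.79% had a lower log2 fold change.

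UBE2C (ENSG00000175063, chromosome 20 from 45812576 to 45816957), the E2 that begins chains, had 51.5, 65.2 and 54.0 FPKM in control against 22.7, 25.9 and 23.5 FPKM in depleted replicates. All 3 OFD1-depleted samples were below all controls, and control replicate 2 was the highest. The mean (± SD, n = 3 per group) fell from 56.9 ± 7.29 FPKM to 24 ± 1.66 FPKM, and the log2 fold change was -1.23 (95% confidence interval -1.53 to -0.94, limma adjusted p = 0.000131). The 4 copies named as pseudogenes of UBE2C had a mean of at most 0.317 FPKM in control, and the sum of UBE2C with them gave a log2 fold change of -1.24.

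CDC20 (ENSG00000117399, chromosome 1 from 43358981 to 43363203), the mitotic activator, had 52.8, 53.2 and 56.4 FPKM in control against 24.3, 25.4 and 22.6 FPKM in depleted replicates. The spread within each group was small beside the gap. The mean fell from 54.1 ± 1.96 FPKM to 24.1 ± 1.38 FPKM (SD, n = 3 per group), to 44.6% of control, a log2 fold change of -1.16 (95% confidence interval -1.42 to -0.90, limma adjusted p = 9.08e-05). FBXO5, UBE2C and CDC20 each passed the threshold under all 16 alternatives tried, with adjusted p-values up to 0.00209, 0.00552 and 0.00249.

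UBE2S (ENSG00000108106, chromosome 19 from 55399745 to 55407788), the E2 that extends chains, was the most abundant member in control, with 72.1, 75.9 and 69.3 FPKM. Its OFD1-depleted replicates 1 and 3 had 35.4 and 32.9 FPKM, or 48.9% and 45.4% of the control mean, while replicate 2 had 62.2 FPKM, or 86%. So the values were lower in 3 of 3 depleted samples, but by much less in replicate 2. UBE2S has 2799 exonic bases as the union of its exons, and the limit of the shortest class was 2604. UBE2C (1286 bases) and CDC20 (2012 bases) stood at 45.5% and 46.9% of control in replicate 2. The part of transcript length in the value of UBE2S was not tested. The mean was 72.4 ± 3.32 FPKM in control against 43.5 ± 16.3 FPKM in depleted samples (SD, n = 3 per group), and the log2 fold change was -0.79 (95% confidence interval -1.25 to -0.34, limma adjusted p = 0.0241). Without OFD1-depleted replicate 2 the log2 fold change was -1.08 (limma adjusted p = 0.000194), and with the trend on exonic length removed it was -0.78 (limma adjusted p = 0.0138). UBE2S kept the threshold in 8 of 16 alternatives and lost it in each comparison that left out any other sample, with adjusted p-values from 0.0551 to 0.0869.

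The gene of UBE2S overlaps RPL28, a ribosomal protein gene on the opposite strand, which had 354, 424 and 312 FPKM in control against 492, 606 and 475 FPKM in depleted replicates. RPL28 was highest in the same OFD1-depleted replicate 2. The study's methods name a directional library kit, the labels name that kit and a further one, and the strand setting of the counting is not stated, so reads of UBE2S and RPL28 may not be told apart, and the part of RPL28 in the value of UBE2S was not tested. The 2 named copies of UBE2S, UBE2SP1 and UBE2SP2, had means of 6.07 and 2.41 FPKM in control, and the sum of all 3 had a log2 fold change of -0.77.

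FZR1 (ENSG00000105325, chromosome 19 from 3506311 to 3538334), the activator used in G1, had 11.8, 11.6 and 14.3 FPKM in control against 10.8, 11.2 and 9.27 FPKM in depleted replicates. The groups did not overlap, but 11.6 in control replicate 2 and 11.2 in OFD1-depleted replicate 2 were close. The mean was 12.6 ± 1.51 FPKM in control against 10.4 ± 1.03 FPKM in depleted samples (SD, n = 3 per group), 83% of control. The log2 fold change was -0.26 (95% confidence interval -0.58 to 0.05, limma adjusted p = 0.241), and FZR1 passed the threshold under 0 of 16 alternatives. FZR1 overlaps MFSD12 on the opposite strand, which had means of 46.0 FPKM in control against 48.9 FPKM in depleted samples.

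**Figure D2:**
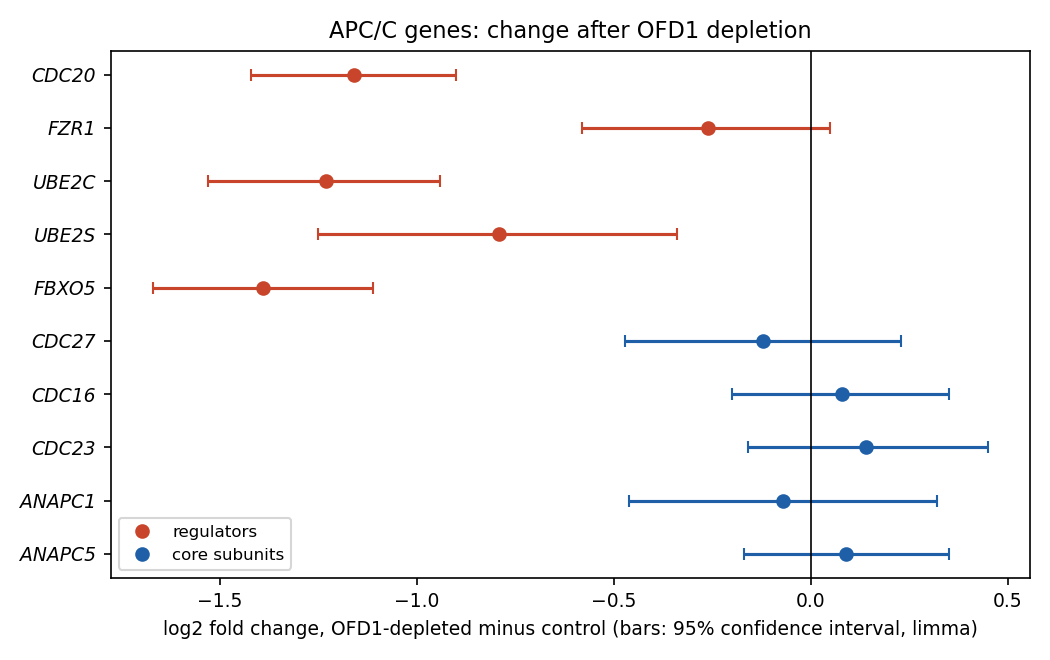
Log2 fold change (OFD1-depleted minus control, horizontal axis) of each APC/C gene with its 95% confidence interval from limma, regulators in red and core subunits in blue. The intervals of FBXO5, UBE2C, CDC20 and UBE2S lie below 0, while those of FZR1 and of the 5 core subunits include 0.

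None of the 5 core subunits passed the threshold in the limma comparison or under any alternative. CDC27 (ENSG00000004897, chromosome 17 from 47117703 to 47189422), at which activators bind, had 21.0, 23.4 and 20.1 FPKM in control against 21.8, 15.6 and 22.4 FPKM in depleted replicates. Only replicate 2 was below the control range. The log2 fold change was -0.12 (95% confidence interval -0.47 to 0.23, limma adjusted p = 0.656) and turned to 0.05 without that replicate. Its 3 named copies did not exceed a mean of 0.18 FPKM in either group.

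ANAPC1 (ENSG00000153107, chromosome 2 from 111611639 to 111884690), the largest subunit of the platform, had 6.97, 6.46 and 6.84 FPKM in control against 7.6, 4.87 and 7.23 FPKM in depleted replicates. Again replicate 2 was low and the other 2 were above all controls. ANAPC1 has the longest exonic sequence of the 10 members (13984 bases) and stood at 72.1% of control in replicate 2. ANAPC5, the next longest (12259 bases), stood at 104% there and CDC27 (6824 bases) at 72.9%. These lengths are unions over all exons of a gene, and the part of length in these values was not tested. The log2 fold change was -0.07 (95% confidence interval -0.46 to 0.32, limma adjusted p = 0.836), 0.13 without replicate 2, 0.08 with the length trend removed and 0.06 after quantile normalization. A further transcript named ANAPC1P2 had 3.38 FPKM in control against 3.33 FPKM in depleted samples on average, so the level of ANAPC1 is uncertain where reads were shared with copies. The sum over ANAPC1 and its copies had a log2 fold change of -0.07.

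CDC23 (ENSG00000094880, chromosome 5 from 138187650 to 138213343), another repeat subunit, had 10.6, 10.6 and 9.96 FPKM in control against 12, 9.91 and 12.6 FPKM in depleted replicates. Replicates 1 and 3 were above the control range and replicate 2 just below it. The log2 fold change was 0.14 (95% confidence interval -0.16 to 0.45, limma adjusted p = 0.528), and its sign turned with all samples scaled to the same total. CDC23 overlaps KIF20A, a mitotic kinesin gene on the opposite strand, which had means of 24 FPKM in control against 9.45 FPKM in depleted samples, so its value is uncertain where strand was not used.

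CDC16 (ENSG00000130177, chromosome 13 from 114234887 to 114272723), the third repeat subunit listed, had 43.7, 49.2 and 41.8 FPKM in control against 49.7, 43.9 and 48.3 FPKM in depleted replicates. The groups overlapped, with a log2 fold change of 0.08 (95% confidence interval -0.20 to 0.35, limma adjusted p = 0.723). ANAPC5 (ENSG00000089053, chromosome 12 from 121308245 to 121399896), of the platform, had 48.4, 54.8 and 51.7 FPKM in control against 56.8, 53.7 and 53.9 FPKM in depleted replicates. It too overlapped, with a log2 fold change of 0.09 (95% confidence interval -0.17 to 0.35, limma adjusted p = 0.668). With all samples scaled to the same total CDC16 was at -0.07 and ANAPC5 at -0.06, so the direction of these subunits depends on the scaling. The interval of no core subunit reaches the -0.79 of UBE2S, the smallest called change among the regulators. The interval of UBE2S itself (-1.25 to -0.34) overlaps those of CDC27 and ANAPC1. The -0.26 of FZR1, the regulator that was not called, lies within the intervals of CDC27 and ANAPC1.

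The order of the members by level, which FPKM allows since it is per length, changed between the groups. In control UBE2S was highest, above UBE2C (56.9), CDC20 (54.1), ANAPC5 (51.6) and CDC16 (44.9 FPKM), which overlapped from each to the next. CDC27 (21.5) came next, then FBXO5 (13.8) and FZR1 (12.6), which overlapped, then CDC23 (10.4) and ANAPC1 (6.76 FPKM). In OFD1-depleted samples ANAPC5 (54.8) and CDC16 (47.3 FPKM) were highest and did not overlap, UBE2S (43.5 FPKM) spread over both, and CDC20 (24.1) and UBE2C (24) overlapped each other. CDC27 (20) followed, then CDC23 (11.5) and FZR1 (10.4 FPKM), which overlapped. ANAPC1 (6.57) and FBXO5 (5.2 FPKM), which overlapped, were lowest.

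Ratios of FPKM within a sample do not change when a sample is multiplied by a factor, and the pairs below were chosen after the values were seen, so they are given without a test. CDC20 to FZR1, the mitotic activator against that of G1, was 4.46, 4.6 and 3.94 in control and 2.25, 2.26 and 2.44 in OFD1-depleted replicates. The ratio of the inhibitor FBXO5 to FZR1 was 1.14, 1.24 and 0.945 in control and 0.475, 0.479 and 0.547 in OFD1-depleted replicates. In both ratios all OFD1-depleted samples, replicate 2 included, were below all controls. UBE2C to UBE2S was 0.785 ± 0.0724 in control and 0.591 ± 0.156 in depleted samples (SD, n = 3 per group), and the groups overlapped. FZR1 to CDC27, an activator to its docking subunit, also overlapped, at 0.591 ± 0.111 and 0.542 ± 0.158 (SD, n = 3 per group). The ratios of UBE2C and of CDC20 to CDC27 were lower in all OFD1-depleted samples than in any control. UBE2S to CDC27 overlapped, at 3.44, 3.25 and 3.45 in control and 1.62, 3.98 and 1.46 in OFD1-depleted replicates, with replicate 2 above all controls.

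The mean log2(FPKM + 0.1) of the 5 regulators was 4.99, 5.08 and 5.06 in control and 4.02, 4.26 and 3.94 in OFD1-depleted replicates. For the 5 core subunits it was 4.34, 4.42 and 4.31 in control and 4.49, 4.16 and 4.48 in OFD1-depleted replicates. The regulators thus stood above the core subunits by 0.65, 0.66 and 0.75 in the controls. In OFD1-depleted replicates 1 and 3 they stood below them, at -0.47 and -0.54, while in replicate 2 the difference was 0.09. The difference between the groups in this measure was -0.99 on the log2 scale, -1.19 without OFD1-depleted replicate 2 and -1.07 with the length trend removed, and it is a description of chosen genes with no test.

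**Figure D3:**
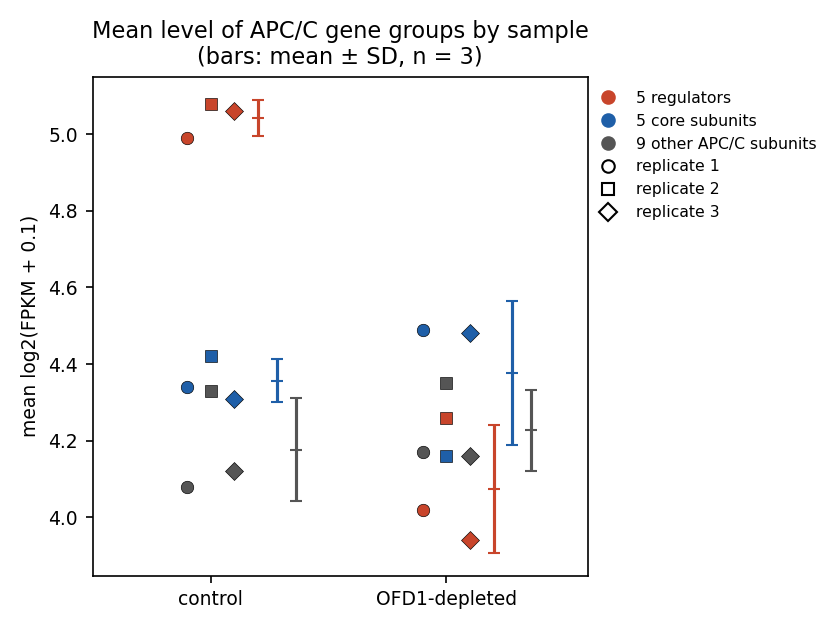
Mean log2(FPKM + 0.1) (vertical axis) of the 5 regulators (red), the 5 core subunits (blue) and 9 other APC/C subunits (grey) in each sample, by group on the horizontal axis, with marker shape for the replicate and bars for the mean ± SD (n = 3). The regulators lie between 4.99 and 5.08 in control and between 3.94 and 4.26 in OFD1-depleted samples, and the subunits stay between 4.08 and 4.49.

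Of the 9 other genes of APC/C subunits (ANAPC2, ANAPC4, ANAPC7, ANAPC10, ANAPC11, ANAPC13, ANAPC15, ANAPC16 and CDC26), 0 were called lower and 0 higher by limma. This held for the 5 core members too. Of all genes tested 11.9% were called lower and 5.07% higher, so most genes were not called either. At an unadjusted p under 0.05, 0 of the 9 were lower and 1 was higher, against 19.1% and 11.5% of all genes tested. Their median log2 fold change was -0.03, with a range from -0.15 to 0.40. ANAPC13, a small subunit, had the smallest p of the list, with 35.6 ± 6.36 FPKM in control against 47.0 ± 7.29 FPKM in depleted samples (SD, n = 3 per group, limma adjusted p = 0.116). ANAPC16 (log2 fold change 0.33, limma adjusted p = 0.203) and ANAPC4 (-0.15, limma adjusted p = 0.538) came next.

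Genes of the spindle checkpoint, whose proteins hold CDC20 and the APC/C inactive until chromosomes are attached or take that inhibition apart, were called lower in 5 of 8, with 0 called higher and a median log2 fold change of -1.04. Of all genes tested 11.9% were called lower. At an unadjusted p under 0.05, 6 of the 8 were lower and 0 higher, against 19.1% and 11.5% of all genes. BUB1, a checkpoint kinase, fell from 23.1 ± 1.02 FPKM to 7.87 ± 0.539 FPKM (SD, n = 3 per group, log2 fold change -1.54, limma adjusted p = 2.41e-05). TTK, the kinase MPS1, fell from 12.3 ± 1.23 FPKM to 4.33 ± 0.783 FPKM (SD, n = 3 per group, log2 fold change -1.49, limma adjusted p = 0.000147). BUB1B, the BUBR1 protein of the mitotic checkpoint complex, fell from 20.7 ± 1.73 FPKM to 7.46 ± 1.56 FPKM (SD, n = 3 per group, log2 fold change -1.48, limma adjusted p = 0.000175). MAD2L1 (-0.89) and TRIP13 (-1.19) were the other 2 called lower, and BUB3 (-0.26), MAD1L1 (-0.44) and MAD2L1BP (0.15, all log2 fold changes) did not pass. These 5 are named after their values were seen.

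Of 25 genes whose proteins are known APC/C substrates, 23 were called lower and 0 higher by limma, against 11.9% and 5.07% of all genes tested, with a median log2 fold change of -1.11. At an unadjusted p under 0.05, 24 were lower and 0 higher, against 19.1% and 11.5% of all genes. RRM2, a subunit of ribonucleotide reductase, fell from 54.4 ± 3.37 FPKM to 12.3 ± 0.519 FPKM (SD, n = 3 per group, log2 fold change -2.14). TPX2, a spindle assembly factor, fell from 45.7 ± 2.64 FPKM to 11.5 ± 0.352 FPKM (SD, n = 3 per group, log2 fold change -1.97), and TACC3, a spindle protein, fell from 34.1 ± 3.32 FPKM to 7.64 ± 1.32 FPKM (SD, n = 3 per group, log2 fold change -2.15). SKP2 (-0.23, limma adjusted p = 0.419) and NUSAP1 (-0.72, limma adjusted p = 0.0766) did not pass and are named as the exceptions after their values were seen. NUSAP1 had 35.5, 36.0 and 16.4 FPKM in control, with control replicate 3 within the OFD1-depleted range of 15.7 to 18.3 FPKM. These are mRNA levels and say nothing of how fast the proteins were degraded.

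Of 8 further genes of the system (other E2 enzymes, deubiquitinases and FBXO43, an inhibitor related to FBXO5), 6 passed the filter on low values, with 1 called lower and 1 higher, against 11.9% and 5.07% of all genes tested. UBE2D2, an E2 of the UBCH5 family, fell from 38.6 ± 3.37 FPKM to 23.9 ± 4.12 FPKM (SD, n = 3 per group, log2 fold change -0.70, limma adjusted p = 0.00789), and lost the threshold without the filter on low values. UBE2E1 rose from 26.9 ± 0.801 FPKM to 39.9 ± 3.04 FPKM (SD, n = 3 per group, log2 fold change 0.56, limma adjusted p = 0.00881), and it lost the threshold without control replicate 1 or without control replicate 3. UBE2D1 had 5.09 ± 0.539 FPKM in control against 3.81 ± 0.307 FPKM in depleted samples (SD, n = 3 per group, limma adjusted p = 0.1). FBXO43 and USP44 did not reach a mean of 1 FPKM.

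The SCF ligase, the other large cullin-RING ubiquitin ligase of the cell cycle, served as a comparison. Of its 12 genes 1 was called lower and 0 higher by limma, near the 11.9% and 5.07% of all genes tested, with a median log2 fold change of 0.07. At an unadjusted p under 0.05, 2 were lower and 1 higher, also near the shares of all genes (19.1% and 11.5%). The 1 called was CKS1B, a cofactor of SKP2, which fell from 67.5 ± 10.2 FPKM to 38.7 ± 6.27 FPKM (SD, n = 3 per group, log2 fold change -0.80, limma adjusted p = 0.00534), and which lost the threshold without the filter on low values. COPS5 (0.36, limma adjusted p = 0.105) and the scaffold CUL1 (-0.31, limma adjusted p = 0.122) did not pass. Whether the lists differ from each other was not tested.

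**Figure D4:**
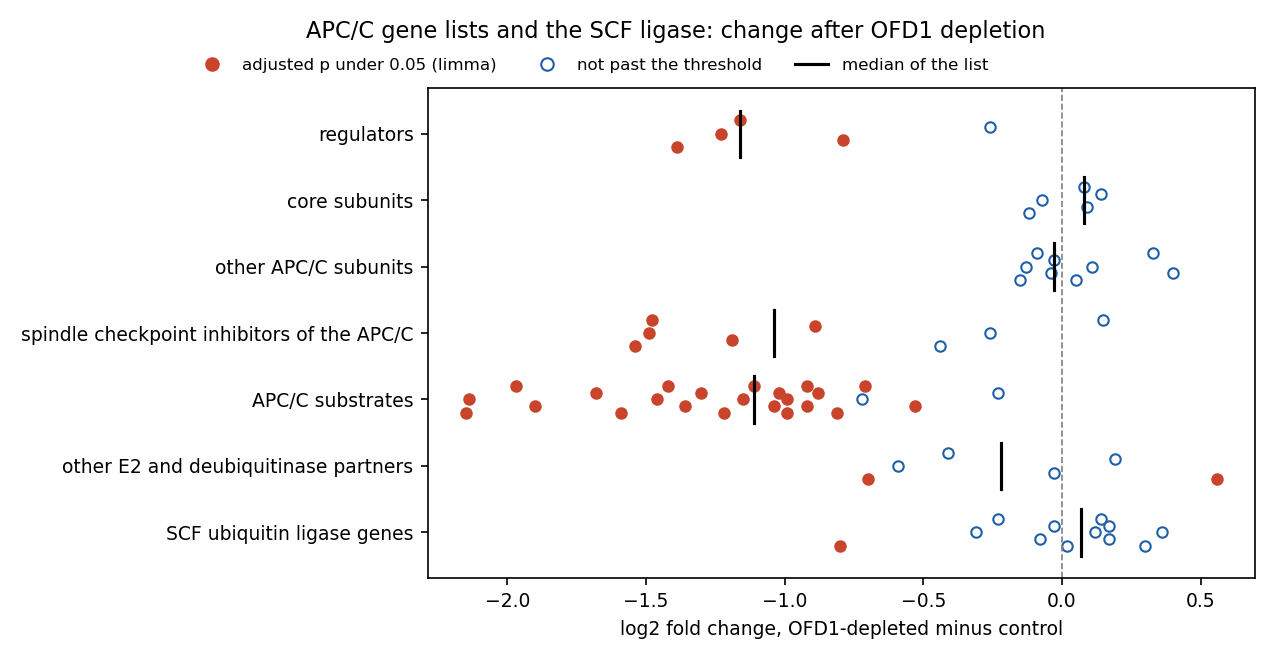
Log2 fold change (OFD1-depleted minus control, horizontal axis) of each tested gene in 7 lists (vertical axis), filled red where the limma adjusted p was under 0.05 and open where it was not, with a black line at the median of the list. The medians are -1.16 for regulators, -1.04 for spindle checkpoint genes and -1.11 for substrates, and lie between -0.22 and 0.08 in the other 4 lists.

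Proliferation markers were lower after OFD1 depletion, as were the called regulators, while FZR1 was not called. MKI67 was 26.3% of control in OFD1-depleted samples, TOP2A 32.9%, MCM2 35% and PCNA 53.1%, all 4 called lower. Beside these, the regulators stood at 37.8% (FBXO5), 42.3% (UBE2C), 44.6% (CDC20), 60.1% (UBE2S) and 83% (FZR1) of control, and the core subunits between 93% (CDC27) and 111% (CDC23).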

How the data were processed

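RNA-seq of 3 control and 3 OFD1-depleted RPE1 samples was analysed. By the methods and the submitters' processing notes, the authors used HISAT2 (version 2.0.5) to align their reads to GRCh38 and deposited 1 FPKM value per gene and sample from StringTie. The strand setting is not given in the sources used here. The deposited table holds no read counts, so no test of counts was made and the reads behind each value are not given here. The 6464 genes on alternative contigs, at 0 in every sample, were left out.

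Genes that averaged 1 FPKM or more were compared as log2(FPKM + 0.1) by limma (version 3.58.1, R 4.3.3), two-sided, its prior variance following the mean level, with Benjamini-Hochberg adjustment over all 12025 genes. A fold change on this scale understates the change of low genes. Single members were also compared by exact permutation (scipy 1.17.1). The script was tested on simulated data. The members and the lists were chosen with earlier results of these data known. The genes named are the 10 members, OFD1, the 3 smallest p-values in each list, genes called against their list, markers, genes that overlap or copy a member, and those said to be chosen after their values were seen. Exonic length is the union of GENCODE version 44 exons of a gene, found for 99.8% of the genes tested.

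Alternatives were pseudocounts of 1 and 0.01, no filter, a filter at 5 FPKM, scaling to the same total, median of ratios, quantile normalization, no trend, the replicate number as a block and each sample left out. Removal of a lowess trend on exonic length (span 0.3) was added after the data were seen.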

Additional observations from a re-analysis of the deposited data

How the results depend on the processing

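Under the 16 alternatives the count of regulators called lower was 4 or 3, with UBE2S as the call that was lost, and 0 core subunits were called under any of them. The difference between regulators and core subunits ran from -0.88 to -1.19 when a sample was left out. Without a filter, 1083 genes were called (823 lower and 260 higher), with 0 of the other E2 and deubiquitinase genes and 0 of the SCF genes lower, over 28501 genes, and UBE2S had an adjusted p of 0.164. Scaling to the same total called 272 genes higher and 2 SCF genes lower, quantile normalization called 1084 higher, and removal of the length trend called 1185 higher. With 1 sample left out, 1111 to 2818 genes were called (867 to 1741 lower, 244 to 1077 higher), and 0 to 1 of the other E2 and deubiquitinase genes were higher. The most were called without OFD1-depleted replicate 2 and the fewest without control replicate 3. A filter at 5 FPKM called 1436 genes, of fewer tested. Signs turned only for core subunits, none of them past the threshold. CDC16 was at -0.07, ANAPC5 at -0.06 and CDC23 at -0.003 with samples scaled to the same total, CDC27 ran from -0.213 to 0.046 and ANAPC1 from -0.184 to 0.132 with 1 sample left out (both highest without OFD1-depleted replicate 2), and ANAPC1 at 0.06 after quantile normalization and 0.076 with the length trend removed. The cause of these changes was not tested. UBE2S also lost the threshold with median of ratios (limma adjusted p = 0.0568) and without the trend of variance (limma adjusted p = 0.055).

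The labels number the samples of both groups alike, but deviations of same-numbered samples correlated across genes at only 0.058, 0.048 and 0.011, and control replicate 3 correlated best with OFD1-depleted replicate 2, so the numbers were not taken as pairs. With the replicate block 2296 genes were called (1534 lower and 762 higher), of which 1945 were shared with the result without it, and no member changed its call.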
